A study of Zea mays with 12 samples.

Results

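The delta zein gene dzs18 was represented on the maize array by 4 probe sets, Zm.9008.2.A1_a_at, Zm.9008.1.A1_at, Zm.9008.1.A1_x_at and Zm.9008.2.S1_at, out of 17621 probe sets other than array controls. They were chosen by annotation alone, as every probe set assigned to dzs18, and all 4 passed the filter on dim probe sets that kept 11747 for testing. Endosperm RNA was measured 19 days after pollination in B73xMo17, Mo17xB73, B73 and Mo17, that is, in both reciprocal hybrids and in the inbred lines that are their parents. Every genotype was sampled 3 times, each time as 36 endosperms from 6 ears of field-grown plants, pooled and hybridised to a separate array. The replicates came from 3 crossing dates of a single season. The p-values therefore rest on the spread between pools of separate dates, as a common estimate over all 4 genotypes. The name of a hybrid was read with the female parent first, a convention that the labels do not state.

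Zeins are the prolamin storage proteins of the maize kernel, made in the starchy endosperm and packed into protein bodies inside the endoplasmic reticulum. Delta zeins lie in the core of the protein body together with alpha zeins, and they are rich in methionine, so that they are a store of sulfur as well as of nitrogen. dzs18 encodes the heavier kind of delta zein. Endosperm is triploid, with a double dose of the maternal genome, so that dzs18 alleles from B73 outnumber those from Mo17 in B73xMo17 endosperm, and the reverse holds in Mo17xB73. No probe set for the lighter delta zein, dzs10, was analysed here.

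By its 3 bright probe sets, dzs18 was among the brightest signals of the array in B73 and in B73xMo17, lower in Mo17xB73, and lowest in Mo17. For Zm.9008.2.A1_a_at, the brightest of the 4 probe sets, the deposited signals were 16451, 17488 and 16321 in B73xMo17 and 10340, 8979 and 12269 in Mo17xB73. The same probe set had signals of 15309, 14261 and 16029 in B73, against 30.1, 24.2 and 81.3 in Mo17. The Mo17 arrays lay far below all 9 others, the Mo17xB73 arrays lay in a range of their own between the inbreds, and the B73xMo17 arrays lay just above those of B73. Means were 16753 ± 640 in B73xMo17, 10529 ± 1654 in Mo17xB73, 15200 ± 889 in B73 and 45.2 ± 31.4 in Mo17 (SD, n = 3 each). On each array the signals were ranked over all 17621 probe sets, and Zm.9008.2.A1_a_at ranked 2 to 4 in B73xMo17, 25 to 90 in Mo17xB73, 3 to 7 in B73 and 9166 to 11702 in Mo17.

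The probe sets Zm.9008.1.A1_at and Zm.9008.1.A1_x_at gave the same order of genotypes. Zm.9008.1.A1_at had signals of 14158, 14526 and 13063 in B73xMo17, 9921, 8607 and 11016 in Mo17xB73, 12770, 12782 and 13365 in B73, and 427, 222 and 602 in Mo17. Zm.9008.1.A1_x_at, whose name marks probes that may bind transcripts of related genes, had signals of 12744, 12835 and 12475 in B73xMo17, 9365, 7785 and 10686 in Mo17xB73, 12158, 11642 and 12377 in B73, and 107, 33.5 and 125 in Mo17. In both, the Mo17xB73 arrays were all below the B73xMo17 and B73 arrays and all above the Mo17 arrays. The dim probe set Zm.9008.2.S1_at had signals of 151, 109 and 110 in B73xMo17, 116, 109 and 157 in Mo17xB73, 79.4, 128 and 135 in B73, and 27, 11.5 and 34.4 in Mo17. Here Mo17 was again lowest on every array, while both hybrids and B73 overlapped. Signals of different probe sets depend on their probes and are not set against each other.

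**Figure D1:**
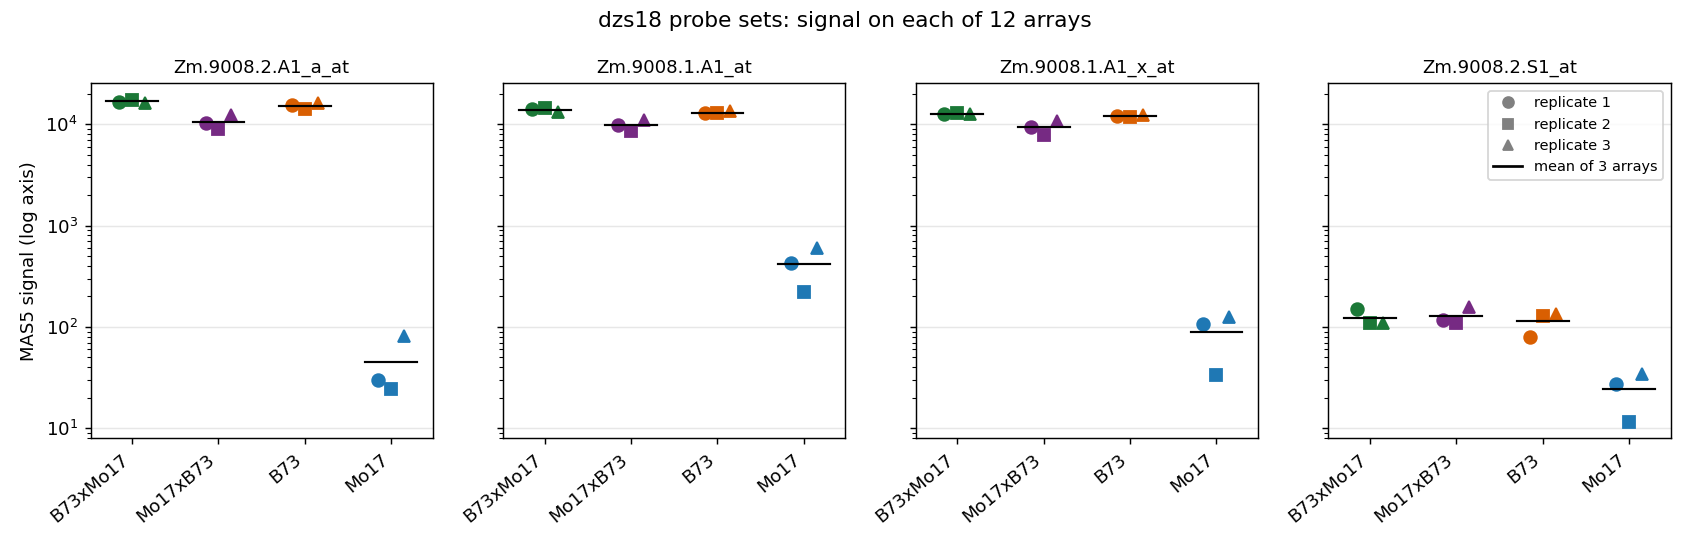
Deposited MAS5 signal (log axis) of each dzs18 probe set on the 12 arrays, by genotype; marker shapes give the replicate number and bars the mean of 3 arrays. In the 3 bright probe sets Mo17xB73 sits below B73xMo17 and B73, and Mo17 is lowest in all 4 probe sets.

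The inbred comparison asked how far the parents differed, which sets the scale for the hybrid positions given below. dzs18 was higher in B73 than in Mo17 in all 4 probe sets, where 13.5% of all tested probe sets were higher in B73. For Zm.9008.2.A1_a_at the difference was 8.23 ± 0.24 on the log2 scale (SE, 95% interval 7.73 to 8.73), an about 300-fold difference with an interval of 212 to 425, and limma's adjusted p was 9.99e-16. It was the greatest B73-over-Mo17 difference among the 11747 tested probe sets. Zm.9008.1.A1_x_at differed by 7.08 (adjusted p = 2.76e-14, limma), Zm.9008.1.A1_at by 5.03 (adjusted p = 2.81e-13) and Zm.9008.2.S1_at by 1.87 (adjusted p = 4.76e-06). These values ranked 4, 20 and 348 among all tested probe sets. The B73 and Mo17 arrays did not overlap in any of the 4, as in 16.2% of all tested probe sets in that direction.

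Differences were computed on log2(signal + 10.6), which understates the change of dim probe sets, and the Mo17 signals of Zm.9008.2.A1_a_at were near that constant. The size of its difference therefore depends on the constant, with 7.37 when 50 was added and 8.57 when 1 was added. The 3 crossing dates gave differences of 8.56, 8.68 and 7.45 for Zm.9008.2.A1_a_at, with the lowest at the date of replicate 3, whose Mo17 array had the highest dzs18 signal. Mo17 was also the genotype with the widest spread for this probe set, with an SD of 0.75 on the log2 scale, against 0.05 in B73xMo17, 0.23 in Mo17xB73 and 0.08 in B73. Whether the probes match the Mo17 transcript as well as the B73 transcript was not tested, so less transcript and weaker binding cannot be told apart in Mo17. In pooled endosperm, fewer cells that express dzs18 and less RNA per cell cannot be told apart either.

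The probe sets gave inbred differences of unequal size. The log2 ratio of Zm.9008.1.A1_at to Zm.9008.2.A1_a_at on the same array differed by -3.20 between B73 and Mo17, and that of Zm.9008.1.A1_at to Zm.9008.1.A1_x_at by -2.05. With 3 arrays against 3, an exact two-sided permutation test of such a ratio cannot go below p = 0.1, so these are given as values. Over the 12 arrays, log2 signals of the probe sets correlated at 0.949 to 0.999, mostly through Mo17. After each genotype's mean was taken out they correlated at 0.624 to 0.97. These values are a description, since the probe sets share arrays and are assigned to the same gene. Whether all of them read the same transcript was not tested.

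The reciprocal comparison asked whether the direction of the cross mattered. In the 3 bright probe sets dzs18 had more signal in every B73xMo17 array than in every Mo17xB73 array, as 9.13% of all tested probe sets did. The difference of Zm.9008.2.A1_a_at was 0.68 ± 0.24 (95% interval 0.18 to 1.18, a 1.6-fold difference), and it did not pass the threshold, with an adjusted p of 0.0708 in limma. With the crossing date as a replicate block, which the shared dates allow, the adjusted p was 0.0184 in limma. With the block 17.8% of all tested probe sets were called, 24.2% of those higher in B73xMo17, and without it 11.9% were called. Zm.9008.1.A1_at differed by 0.50 (adjusted p = 0.147, limma), Zm.9008.1.A1_x_at by 0.46 (adjusted p = 0.277) and Zm.9008.2.S1_at by -0.04 (adjusted p = 0.942). None of the 4 was therefore called, where 3.11% of all tested probe sets were called higher in B73xMo17. Date by date, Zm.9008.2.A1_a_at was higher in B73xMo17 by 0.67, 0.96 and 0.41.

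The order of the reciprocal hybrids was the order of maternal B73 dose, and all tested probe sets together moved slightly the other way, with a median of -0.14. Fitting the reciprocal hybrids alone, without the wide spread of Mo17, gave the same 0.68 for Zm.9008.2.A1_a_at with an adjusted p of 0.00111 in limma. Zm.9008.1.A1_at (0.50, adjusted p = 0.00444) and Zm.9008.1.A1_x_at (0.46, adjusted p = 0.0114) also passed in that fit. It called 18.4% of all tested probe sets in place of 11.9%, and 22.2% of its calls were higher in B73xMo17. Scaling the arrays to a common trimmed mean gave 0.85 (adjusted p = 0.0135), and median centring gave 0.82 (adjusted p = 0.0243). Leaving out any single hybrid array kept the difference between 0.57 and 0.80 and did not bring it past the threshold.

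B73xMo17 was close to its female parent B73 in dzs18 signal. Zm.9008.2.A1_a_at was 0.14 higher in B73xMo17 (95% interval -0.36 to 0.64, adjusted p = 0.892 in limma), so a difference of up to about 1.56-fold is within the interval. The common spread behind that interval includes Mo17, whose log2 SD was 0.75, against 0.05 in B73xMo17 and 0.08 in B73. None of the 4 probe sets was called in either direction, where 4.99% of all tested probe sets were, and the other 3 differed by 0.07 to 0.12. Every B73xMo17 array lay above every B73 array in Zm.9008.2.A1_a_at and Zm.9008.1.A1_x_at, as in 16.4% of all tested probe sets. In this range the probe set neared the top of the scale: its signal was 88.1% to 94.3% of the array's highest in B73xMo17, 55.5% to 70% in Mo17xB73 and 85.5% to 89.3% in B73. The part of saturation in the small difference between B73xMo17 and B73 was not tested.

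Mo17xB73 was below its male parent B73 and far above its female parent Mo17. Against B73, Zm.9008.2.A1_a_at differed by -0.54 (95% interval -1.04 to -0.04), with an adjusted p of 0.101 in limma and of 0.0372 with the replicate block. Zm.9008.1.A1_at and Zm.9008.1.A1_x_at differed by -0.40 and -0.39, with adjusted p of 0.186 and 0.297 in limma, and Zm.9008.2.S1_at by 0.16 (adjusted p = 0.672). None of the 4 was called lower, where 5.94% of all tested probe sets were, although the arrays of the 3 bright probe sets did not overlap, as in 11.3% of all tested probe sets. A fit of Mo17xB73 and B73 alone gave an adjusted p of 0.00195 for Zm.9008.2.A1_a_at. In limma it gave 0.00694 for Zm.9008.1.A1_at and 0.0148 for Zm.9008.1.A1_x_at. That fit called 35.6% of all tested probe sets, 77.7% of those higher in Mo17xB73. With the replicate block 33.5% were called, and without it 27%.

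Both hybrids were higher than Mo17 in all 4 probe sets. B73xMo17 exceeded Mo17 by 8.37 for Zm.9008.2.A1_a_at (adjusted p = 1.84e-15, limma), where 10.9% of all tested probe sets were higher in B73xMo17, and the other probe sets differed by 1.98 to 7.16. Mo17xB73 exceeded Mo17 by 7.69 (adjusted p = 1.51e-14, limma), where 5.86% of all tested probe sets were higher in Mo17xB73, and the other probe sets differed by 2.03 to 6.69. In both comparisons Zm.9008.2.A1_a_at had the greatest difference of all tested probe sets. The 3 comparisons against Mo17 share the Mo17 arrays and are not independent of each other. In the order B73xMo17, B73, Mo17xB73 and Mo17, the last step was thus the one that exceeded the spread in every probe set, while the first and second did not pass the threshold in the fit without the replicate block. With the block the second passed for Zm.9008.2.A1_a_at (adjusted p = 0.0372, limma).

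**Figure D2:**
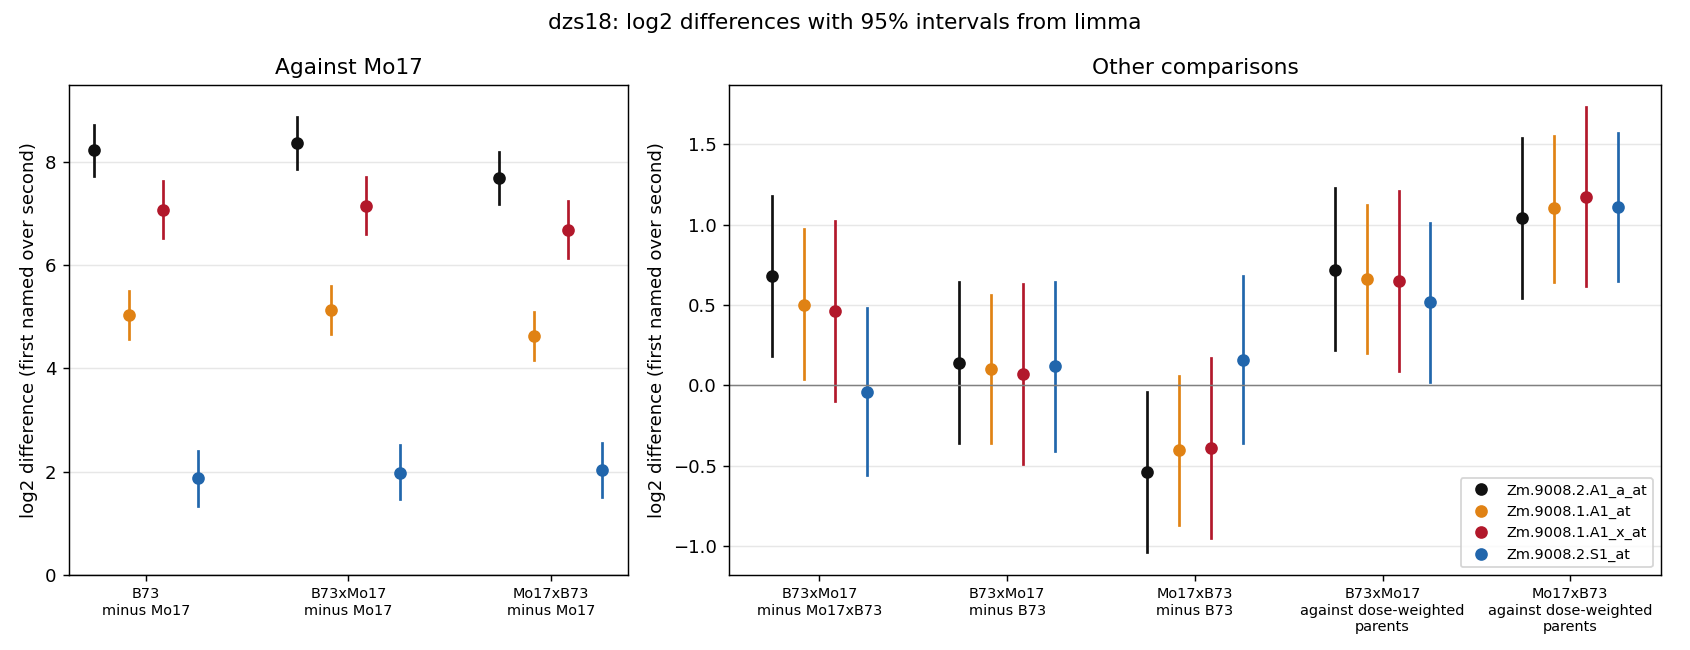
Log2 differences (first-named genotype over second) with 95% intervals from limma for the 4 dzs18 probe sets; the left panel holds the comparisons against Mo17 and the right panel the others on a narrower axis. Differences against Mo17 run from 1.87 to 8.37, while the reciprocal difference of Zm.9008.2.A1_a_at is 0.68 and that of Zm.9008.2.S1_at is -0.04.

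The study's title names non-additive expression, so each hybrid was set against the level its genome doses predict, the linear mean of the parents weighted 2 parts female to 1 part male. Mo17xB73 had more dzs18 signal than its dose predicts. For Zm.9008.2.A1_a_at it averaged 10529 ± 1654 (SD, n = 3) against a predicted 5087, a difference of 1.04 (95% interval 0.54 to 1.54, 2.05-fold), with an adjusted p of 0.0539 in limma and of 0.00591 with the replicate block. The other 3 passed the threshold, Zm.9008.1.A1_at at 1.10 (adjusted p = 0.0211, limma), Zm.9008.1.A1_x_at at 1.17 (adjusted p = 0.0484) and Zm.9008.2.S1_at at 1.11 (adjusted p = 0.0211), where 0.528% of all tested probe sets were called above dose. Of the B73 signals behind the predictions, those of Zm.9008.2.A1_a_at were near the top of the scale, at 85.5% to 89.3% of the array's highest. Those of Zm.9008.1.A1_at and Zm.9008.1.A1_x_at were at 66.7% to 76.6%, and those of Zm.9008.2.S1_at at 0.463% to 0.764%. The part of saturation in the predictions was not tested. With the replicate block 1.4% of all tested probe sets were called against dose in Mo17xB73, in place of 0.57%. The 3 calls above dose are close to the threshold. All 3 were lost under each of 3 other scalings of the arrays (adjusted p of 0.0611 to 0.205, limma), with no filter on dim probe sets (0.113 to 0.19) and against the plain mean of the parents (differences of 0.55 to 0.81, adjusted p of 0.103 to 0.4). A pseudocount of 1 ended the calls of Zm.9008.1.A1_x_at (0.131) and Zm.9008.2.S1_at (0.061). That of Zm.9008.1.A1_at was lost without Mo17xB73 replicate 1 (adjusted p = 0.0672), Mo17xB73 replicate 3 (0.155) or B73 replicate 2 (0.079). That of Zm.9008.2.S1_at was lost without B73 replicate 1 (adjusted p = 0.0547), Mo17xB73 replicate 1 (0.0536) or Mo17xB73 replicate 3 (0.201). That of Zm.9008.1.A1_x_at was lost without any 1 of the Mo17xB73 arrays (adjusted p of 0.146, 0.0756 and 0.258 by replicate number) or of the B73 arrays (0.088, 0.14 and 0.0896), and Zm.9008.2.A1_a_at passed once any 1 of the Mo17 arrays was left out (0.046, 0.0213 and 4.22e-04).

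B73xMo17 was also above its dose-weighted level in all 4 probe sets, and none was called, where 0.204% of all tested probe sets were called above dose. Zm.9008.2.A1_a_at averaged 16753 ± 640 (SD, n = 3) against a predicted 10135, a difference of 0.72 (95% interval 0.22 to 1.23, adjusted p = 0.301 in limma). The other probe sets differed by 0.52 to 0.66. Zm.9008.2.A1_a_at was called without Mo17 replicate 3 (adjusted p = 0.0103), and Zm.9008.1.A1_at and Zm.9008.1.A1_x_at were called without Mo17 replicate 2 (0.0349 and 0.0361). The comparisons of both hybrids with dose share the inbred arrays. Median shifts of all tested probe sets against dose were -0.02 in B73xMo17 and 0.05 in Mo17xB73.

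The title also names imprinted expression, so the reciprocal difference was set against the one that dose predicts. For Zm.9008.2.A1_a_at the observed 0.68 was 0.31 short of it, a departure of -0.31 on the log2 scale (95% interval -0.81 to 0.19, adjusted p = 0.572 in limma). Zm.9008.1.A1_at, Zm.9008.1.A1_x_at and Zm.9008.2.S1_at departed by -0.43, -0.52 and -0.60. None of the 4 was called, where 5.91% of the 5058 probe sets with an inbred difference were. Zm.9008.1.A1_x_at was called without Mo17 replicate 2, at -0.51 (adjusted p = 0.0286).

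A hybrid's position between the inbreds was computed per crossing date on the linear scale, from 0 at the Mo17 signal to 1 at the B73 signal. For Zm.9008.2.A1_a_at, B73xMo17 stood at 1.07, 1.23 and 1.02, and Mo17xB73 stood at 0.675, 0.629 and 0.764. Dose alone would place them at 0.667 and 0.333, so both hybrids stood above it at all 3 dates. Means were 1.11 ± 0.108 in B73xMo17 and 0.689 ± 0.0688 in Mo17xB73 (SD, n = 3). Zm.9008.1.A1_at gave 1.08 ± 0.0872 and 0.751 ± 0.0759 in the same order, and Zm.9008.1.A1_x_at gave 1.05 ± 0.0475 and 0.766 ± 0.0972. Positions of Zm.9008.2.S1_at were too scattered to place the hybrids, at 1.31 ± 0.905 in B73xMo17 and 1.25 ± 0.428 in Mo17xB73.

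The weight of the female parent, which dose would set at 0.667, was 0.709 ± 0.0862 for Zm.9008.2.A1_a_at, 0.662 ± 0.0781 for Zm.9008.1.A1_at and 0.644 ± 0.0723 for Zm.9008.1.A1_x_at (SD, n = 3). All 3 lay within their SD of the dose weight. The weight is set by the linear difference between the hybrids, scaled by that between the inbreds. It leaves out that both hybrids stood above dose. The part of saturation of the B73 signals in the weight was not tested. On the log2 scale the reciprocal departure of Zm.9008.2.A1_a_at was -0.31, on the other side of dose from its weight. Among 810 tested probe sets other than dzs18 that were called and at least 2-fold higher in B73, the median position was 0.716 in B73xMo17 and 0.427 in Mo17xB73. From genotype means, Zm.9008.2.A1_a_at stood at 1.1 and 0.692, and 6.54% and 12.1% of those 810 stood at or above it. Among the 10 of them with a B73 mean of at least 5000, the medians were 0.816 and 0.532, and 30% stood at or above dzs18 in Mo17xB73.

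**Figure D3:**
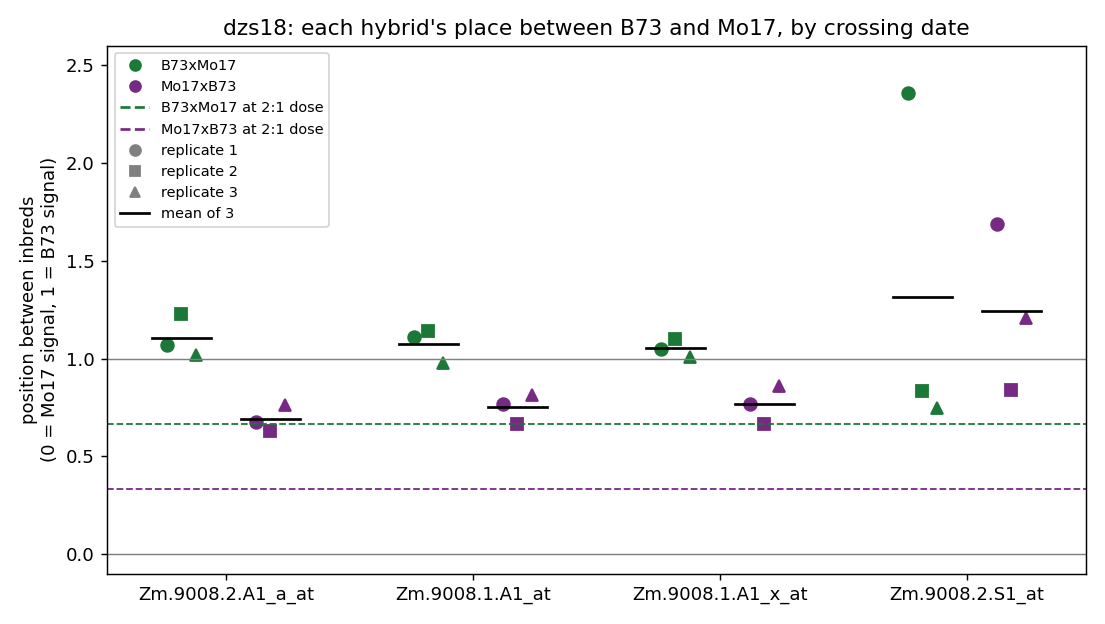
Position of each hybrid between Mo17 (0) and B73 (1) on the linear signal scale, by crossing date, for the 4 dzs18 probe sets; bars are means of 3 dates and dashed lines the positions that a 2:1 dose predicts (0.667 for B73xMo17, 0.333 for Mo17xB73). In the 3 bright probe sets both hybrids stand above their dashed line at every date.

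The other zein genes named by the annotation did not share the large inbred difference of dzs18. Of 7 other zeins, 1 was higher in B73 and none lower, where 13.5% and 29.5% of all tested probe sets were, and the median was 0.09, where that of all tested probe sets was -0.22. The alpha zein z1C1_12 was that one, at 5781 ± 901 in B73 and 3694 ± 910 in Mo17 (SD, n = 3 each), a difference of 0.67 (adjusted p = 0.00893, limma). It ran against dzs18 between the hybrids, with 3710 ± 602 in B73xMo17 and 7215 ± 1538 in Mo17xB73, a difference of -0.95 (adjusted p = 0.0029). Without Mo17 replicate 2 its inbred call was lost, at 0.44 (adjusted p = 0.083). The gamma zein gz50 and the alpha zeins z1C2 and z1C1_4 differed between the inbreds by 0.17, 0.14 and 0.09. gz50 and z1C2 were called higher in B73 under each of 3 other scalings of the arrays, for 3 of 7 in all. Under those scalings 46.6% to 48.5% of all tested probe sets were called, 43.4% to 48.7% of those higher in B73. gz50 averaged 14326 ± 750 in B73 and 12707 ± 702 in Mo17 (SD, n = 3 each), where the inbred arrays' highest signals were 15335 to 18563. The part of saturation in the small zein differences was not tested. Several zein probe sets have names that mark possible binding of related transcripts, so levels of single family members are uncertain.

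Genes for regulators of zein transcription moved in part. Of 5 on the array, 2 were higher in B73 and none lower, where 13.5% and 29.5% of all tested probe sets were. o2 encodes Opaque2, a bZIP factor that activates zein genes, and it averaged 3540 ± 502 in B73 against 190 ± 28.2 in Mo17 (SD, n = 3 each), a difference of 4.15 (adjusted p = 2.07e-12, limma). Between the hybrids o2 averaged 2782 ± 343 in B73xMo17 and 1757 ± 566 in Mo17xB73, a difference of 0.70 (adjusted p = 0.0337). That call was lost without B73xMo17 replicate 1 (0.63, adjusted p = 0.11), B73xMo17 replicate 3 (0.68, adjusted p = 0.11), Mo17xB73 replicate 2 (0.47, adjusted p = 0.186) or Mo17xB73 replicate 3 (0.71, adjusted p = 0.0959). ohp1, whose product pairs with Opaque2, averaged 388 ± 48.1 in B73 and 126 ± 17.2 in Mo17, a difference of 1.55 (adjusted p = 1.86e-06). PBF, a factor that binds the prolamin box, differed by -0.27 and passed the threshold without Mo17 replicate 1, at -0.45 (adjusted p = 0.00518). Nkd1 differed by 0.18, was called under 3 other scalings and stood at -0.01 without Mo17 replicate 1.

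Genes of sulfur and methionine metabolism, the supply of the amino acid in which delta zeins are rich, moved in both directions. Of 13 on the array 11 were tested. Of those, 2 were higher and 6 lower in B73, where 13.5% and 29.5% of all tested probe sets were. HMT-2, a homocysteine S-methyltransferase that forms methionine, averaged 230 ± 47.4 in B73 and 16.7 ± 7.98 in Mo17, a difference of 3.15 (adjusted p = 7.77e-11, limma). Its relative HMT-3 was higher by 0.74 (adjusted p = 0.00378). Another relative, hmt1, went the other way, at -0.87 between the inbreds (adjusted p = 0.014, limma). Between the hybrids hmt1 differed by -2.11 (adjusted p = 3.68e-05, limma), and hmt4 was too dim to be tested. aprl1 and sat3 were lower in B73, at -2.04 (adjusted p = 8.94e-07) and -0.94 (adjusted p = 1.73e-04). The count of 6 lower fell to 3 without B73 replicate 1 or Mo17 replicate 2 and to 2 without Mo17 replicate 3. Between the hybrids 3 of the 11 were lower in B73xMo17 and none higher, where 8.79% and 3.11% of all tested probe sets were. HMT-3 was called higher in B73xMo17 under each of 3 other scalings, at 0.45 to 0.49 (adjusted p of 0.00278 to 0.0388, limma).

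Of the 2 genes listed for aspartate and lysine metabolism, lkrsdh1, an enzyme of lysine breakdown, was higher in B73 by 0.70 (adjusted p = 0.01, limma). AK1, an aspartate kinase upstream of lysine and methionine, differed by -0.66 (adjusted p = 0.0103). Of all tested probe sets, 13.5% were higher and 29.5% lower in B73. AK1 is also on the list for sulfur and methionine, where it is among the 6 counted as lower. Leaving out B73 replicate 1 ended the call of lkrsdh1 (0.59, adjusted p = 0.0528), and that of AK1 ended without B73 replicate 1 (-0.57, adjusted p = 0.0514) or Mo17 replicate 3 (-0.50, adjusted p = 0.069). Of 16 genes for protein bodies and folding in the endoplasmic reticulum, none was higher and 6 were lower in B73, where 13.5% and 29.5% of all tested probe sets were, and the median was -0.40, where that of all tested probe sets was -0.22. Of the 16, 2 were called higher under quantile normalization, 1 under median centring and 2 under trimmed mean scaling. In the same order 48.5%, 46.6% and 48% of all tested probe sets were called, 47.4%, 43.4% and 48.7% of those higher. The protein disulfide isomerase genes pdi4, pdi5 and pdi3 differed by -1.72, -1.13 and -0.77, and CNX, for the chaperone calnexin, by -0.65. The count of 6 was 3 without B73 replicate 1, Mo17 replicate 2 or Mo17 replicate 3, each of which also lost CNX (adjusted p of 0.0869, 0.117 and 0.0915), and 10 without Mo17 replicate 1.

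**Figure D4:**
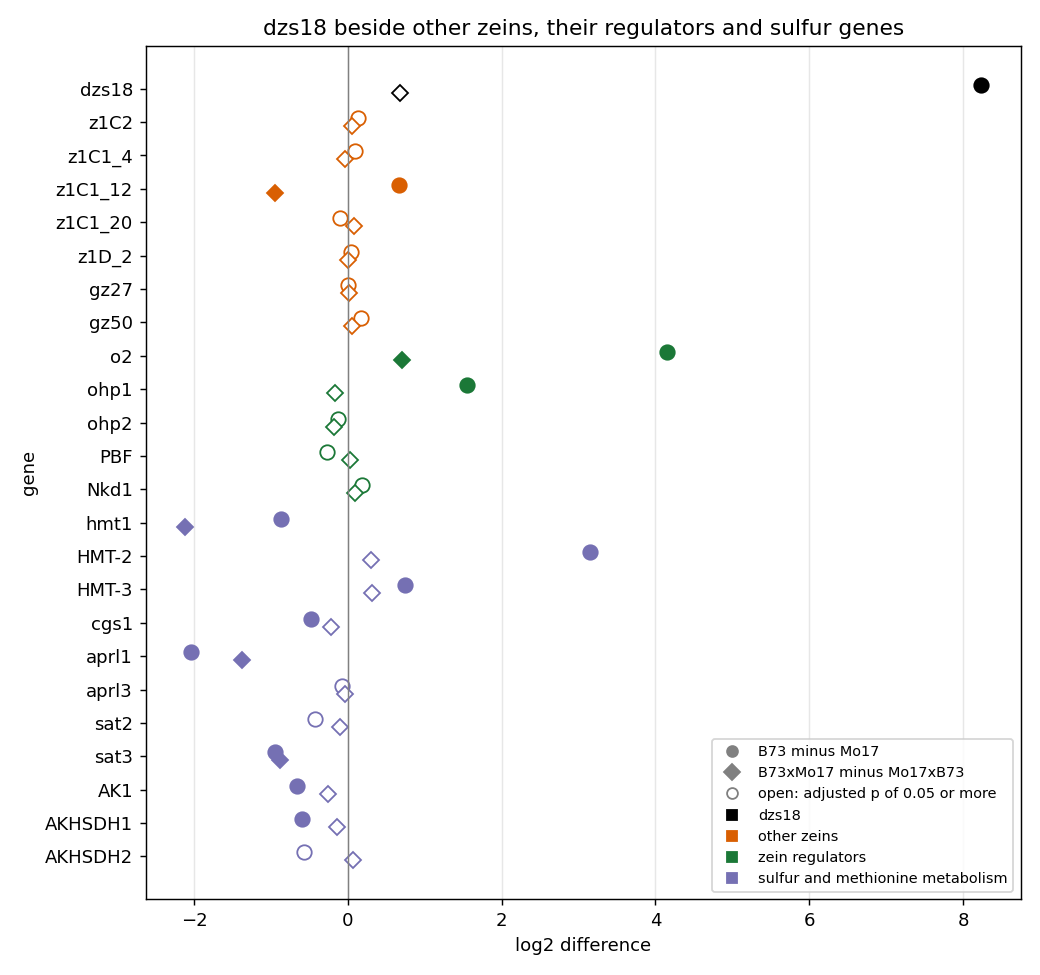
Log2 differences of dzs18 (Zm.9008.2.A1_a_at), other zeins, zein regulators and genes of sulfur and methionine metabolism, with circles for B73 minus Mo17, diamonds for B73xMo17 minus Mo17xB73, and filled markers where limma's adjusted p was under 0.05. dzs18 has the largest inbred difference shown, at 8.23, followed by o2 at 4.15 and HMT-2 at 3.15.

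Markers of the starchy endosperm, the tissue that makes zeins, were bright in all genotypes. None of the 5 was called between the inbreds or between the hybrids, where 43.1% and 11.9% of all tested probe sets were. The brightest, sh2, averaged 12989 in Mo17 to 13900 in B73xMo17, where the arrays' highest signals were 15335 to 18667. The part of saturation in the small marker differences was not tested. The scalings that brought the reciprocal difference of dzs18 past the threshold also moved these markers. Under trimmed mean scaling 3 of 5 were called higher in B73xMo17 and 2 higher in B73. Of all tested probe sets, 20% and 48% were called there, 53.7% and 48.7% of those higher. Median centring gave 1 higher in each comparison, where 16.7% and 46.6% were called, 51.6% and 43.4% of those higher. Quantile normalization gave 1 higher in B73, where 48.5% were called, 47.4% of those higher. Their summed signal ranged over 51172 to 54157 in B73xMo17, 47872 to 52793 in Mo17xB73, 46095 to 54761 in B73 and 42321 to 54474 in Mo17. Markers of the basal transfer layer, the cells that take up sugar from the mother plant, moved opposite to dzs18: of 10 tested, 9 were lower in B73xMo17 than in Mo17xB73, where 8.79% of all tested probe sets were, and 7 were lower in B73 than in Mo17, where 29.5% were. The summed signal of all 11 on the array was 2902 to 4057 in B73xMo17, 10628 to 12537 in Mo17xB73, 2349 to 2795 in B73 and 6234 to 12940 in Mo17. Embryo markers summed over all 7 were at 621 to 1722 in B73xMo17, 1827 to 2648 in Mo17xB73, 464 to 887 in B73 and 1272 to 2308 in Mo17. The 3 aleurone markers summed to 834 to 1984 in B73xMo17, 2077 to 2571 in Mo17xB73, 1048 to 2491 in B73 and 1147 to 1755 in Mo17. Among them PLTP averaged 790 ± 677 in B73 and 52.4 ± 26.7 in Mo17 (SD, n = 3 each), a difference of 3.41 (adjusted p = 6.58e-05, limma), while vpp1 differed by -0.81 (adjusted p = 0.00285), and c1 was too dim to be tested. The 6 green and maternal tissue markers summed to 183 to 242 on all arrays, and psah1 among them was higher in B73, at 62.7 ± 8.78 against 31.2 ± 4.55 in Mo17 (0.81, adjusted p = 0.00611). The part of these shifts in the dzs18 differences was not tested.

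The genes whose pattern over the 12 arrays was most like that of Zm.9008.2.A1_a_at were all low in Mo17. That follows from the measure, since its differences from Mo17 far exceed those between the other genotypes. Among named genes they were PDC (pyruvate decarboxylase, r = 0.983), o2 (0.975), tub6 (a beta tubulin, 0.975), CesA-4 (a cellulose synthase subunit, 0.971) and HMT-2 (0.969). The unnamed probe sets Zm.14798.2.A1_at, Zm.3714.2.A1_at and Zm.9703.1.A1_at reached 0.997, 0.997 and 0.996. In all, 137 of 11743 probe sets (1.17%) had r over 0.95, all of them on the same 12 arrays of 4 genotypes, and 8 did so by Spearman correlation, under which none of the 5 named genes stayed among the 5 most alike. The named genes most opposite were fae1 (r = -0.858), psiP (-0.836) and SRP1A (-0.828).

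In the named genes the likeness lay in the low Mo17 signal more than in the hybrids. Taken as positions between the genotype means of the inbreds, the 5 named genes stood at 0.596 to 0.856 in B73xMo17 and 0.468 to 0.725 in Mo17xB73, against 1.1 and 0.692 for dzs18. The unnamed probe sets, the most alike of all, stood nearer to dzs18 in B73xMo17. Zm.14798.2.A1_at stood at 0.972 in B73xMo17 and 0.711 in Mo17xB73, Zm.3714.2.A1_at at 1 and 0.894, and Zm.9703.1.A1_at at 0.953 and 0.824. Zm.3714.2.A1_at was nearest to B73 in both hybrids, at 5911 ± 270 in B73xMo17, 5311 ± 583 in Mo17xB73, 5899 ± 610 in B73 and 368 ± 117 in Mo17 (SD, n = 3 each).

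**Figure D5:**
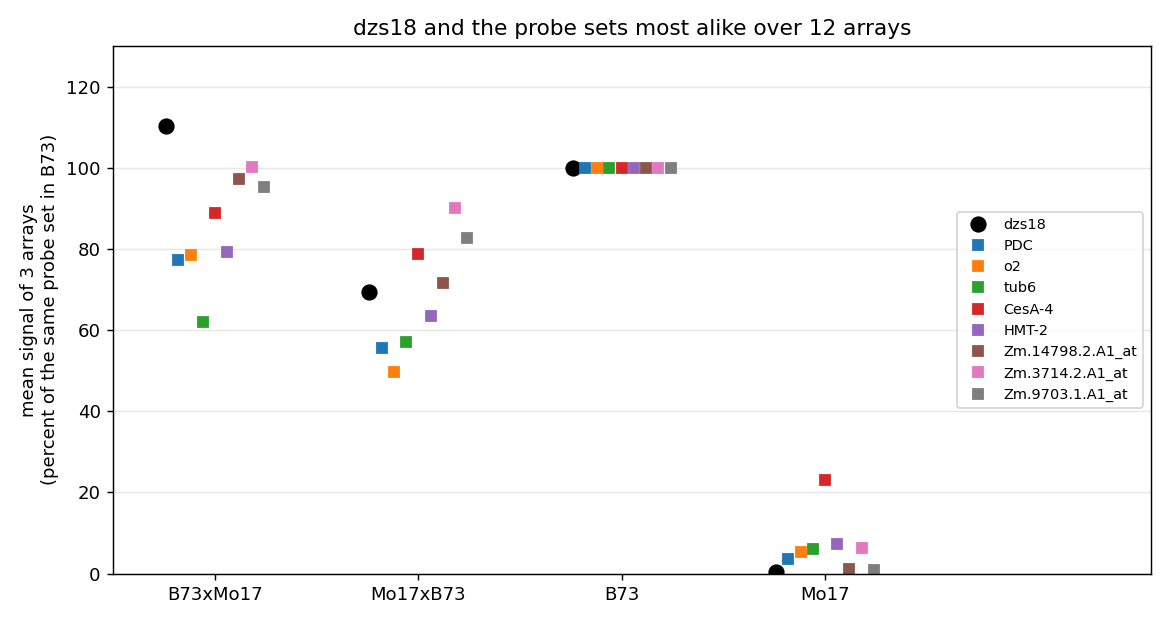
Mean signal of 3 arrays in each genotype, as a percentage of the same probe set's mean in B73, for dzs18 (Zm.9008.2.A1_a_at), the 5 named genes and the 3 unnamed probe sets most alike over 12 arrays. All fall to a low level in Mo17, which their choice by correlation with dzs18 favours, while the hybrids are spread, with dzs18 highest in B73xMo17.

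Neighbouring genes did not share the dzs18 pattern where they could be read. In the gene order of the current B73 annotation, the nearest named genes with a tested probe set were spr9, 10 genes before dzs18, and AGA2, 35 genes after it. spr9 averaged 117 in B73 and 98.1 in Mo17, a difference of 0.23 (adjusted p = 0.408, limma). AGA2 averaged 32.3 in B73 and 144 in Mo17, a difference of -1.86 (adjusted p = 8.57e-07). Most probe sets have no gene in the annotation, so closer neighbours may be on the array under no name.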

How the data were processed

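MAS5 made the deposited values, per the submitters' processing notes: they are intensity signals, not logged, with 1 value for a probe set on an array. The sources used here do not give its scaling target or its detection calls. Gene names are those of the platform's table, brought up to date through current gene records. They cover 1452 probe sets with a single gene and 1 with several, and leave 16281 of 17734 without a name. The 113 controls and the dimmest 33.3% were left out. A pseudocount of 10.6, the 20th percentile of all values, was added before taking log2. Differences were fitted in R 4.3.3 with limma 3.58.1 (lmFit, eBayes with trend) over all 4 genotypes, two-sided, and Benjamini-Hochberg adjusted over all tested probe sets at 0.05. Dose comparisons used female and male weights of 0.667 and 0.333 and delta-method errors. The inbred, reciprocal and dose comparisons and the reciprocal departure were tested on simulated data without date effects. The scalings, replicate block, positions, ratios of probe sets and correlations were not. The number of arrays limits the precision.

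Named were all dzs18 probe sets and, per gene list, the 4 genes with the smallest p between the inbreds. The HMT relatives hmt1 and hmt4 were added. Also named were the 5 named and 3 unnamed probe sets most like dzs18, and the 3 named genes most opposite. For each listed gene the brightest probe set was used. The members and lists were chosen with earlier results of these data known. Neighbouring genes, marker sums and positions of other probe sets are descriptions. The labels tie a replicate number to a crossing date shared by all genotypes, which pairs the samples. Residuals about genotype means correlated by 0.0434 to 0.412 for same-numbered arrays (18 pairs, 13 over 0.1) and by -0.322 to 0.167 for the other 36 pairs. Alternatives were 3 scalings of the arrays, 2 pseudocounts, 2 filters, the replicate block, no trend, fits of only the groups compared, other dose expectations and leaving out each array.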

Additional observations from a re-analysis of the deposited data

How the results depend on the processing

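The excess of dzs18 in B73, B73xMo17 and Mo17xB73 over Mo17 passed the threshold under all alternatives run, in all 4 probe sets. For Zm.9008.2.A1_a_at, differences that missed the threshold passed it as follows. The reciprocal difference passed with median centring (0.82), trimmed mean scaling (0.85), a pseudocount of 50 (0.68), the replicate block (0.68) and a fit of only the groups compared (0.68). Mo17xB73 minus B73 passed under the same alternatives, at -0.81, -0.76, -0.54, -0.54 and -0.54. Mo17xB73 against dose passed with quantile normalization (1.00), a pseudocount of 50 (1.03), the dimmest 50% left out (1.04) and the replicate block (1.04), and ranged over 0.92 to 1.14 when single arrays were left out. For the other 3 probe sets that call was lost under all 3 scalings, with no filter and with a mid-parent expectation, as given in the report, and for Zm.9008.1.A1_at and Zm.9008.1.A1_x_at also without a trend in eBayes (adjusted p = 0.0555 and 0.098). With the expectation weighted on the log2 scale, which lies far lower when the parents differ this much, the departures from dose passed at 2.88 in B73xMo17 and 4.95 in Mo17xB73, and the reciprocal departure passed at -2.06. A mid-parent expectation gave 1.14 in B73xMo17 (adjusted p = 0.0121, limma) and 0.46 in Mo17xB73 (adjusted p = 0.52, limma). With the dose-weighted expectation, B73xMo17 ranged over 0.68 to 0.76 when single arrays were left out. The position of Mo17xB73 moved to 0.591 with trimmed mean scaling, and 8 probe sets exceeded a Spearman correlation of 0.95. The replicate block changed no other call of a dzs18 probe set than the 3 given in the report.

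Small differences changed sign. Zm.9008.2.S1_at gave reciprocal differences of 0.11, 0.10 and 0.12 under quantile, median and trimmed mean scaling (-0.19 to 0.11 with single arrays left out), and gave -0.09, -0.11 and -0.05 for Mo17xB73 minus B73 (-0.06 to 0.29). For B73xMo17 minus B73, quantile normalization gave -0.04 in Zm.9008.1.A1_x_at, and median centring gave -0.05 there, -0.03 in Zm.9008.1.A1_at and -0.01 in Zm.9008.2.S1_at (-0.10 to 0.25). z1C1_4 stood at 0.10 and 0.13 between the hybrids under median and trimmed mean scaling. With single arrays left out, Nkd1 ranged over -0.01 to 0.28 between the inbreds, and between the hybrids lkrsdh1 ranged over -0.14 to 0.33, z1C2 over -0.03 to 0.12, gz50 over -0.04 to 0.11 and PBF over -0.01 to 0.09. The cause of these changes was not tested.

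Counts over all tested probe sets, the base of the shares set beside dzs18, moved with the scaling and with single arrays. The 1398 reciprocal calls became 2538, 1957 and 2355 under quantile, median and trimmed mean scaling, and the share of them higher in B73xMo17 was 52.8%, 51.6% and 53.7% in place of 26.1%. Calls higher in B73 were 47.4%, 43.4% and 48.7% of inbred calls in place of 31.4%. B73xMo17 minus B73 had 1038, 882 and 991 calls in place of 586 (63.3%, 55.4% and 68.4% higher, in place of 85%), and Mo17xB73 minus Mo17 had 1233, 1418 and 1258 in place of 760 (65.7%, 48.9% and 70.8% higher, in place of 90.5%). Mo17xB73 minus B73 calls were 47.2%, 41.5% and 50.3% higher in place of 78%. Calls against dose became 169 in place of 84 in B73xMo17 and 164 in place of 67 in Mo17xB73 with the replicate block, and 479 in place of 299 for the reciprocal departure. With the log2 expectation they were 336 and 512, with no filter 35 and 24. Leaving out replicate 2 or 3 of either hybrid gave 751 to 922 reciprocal calls. Calls of B73xMo17 minus Mo17 became 5763 without Mo17 replicate 1 and 2303 without Mo17 replicate 2, in place of 3461, and those of Mo17xB73 minus Mo17 became 1567 without Mo17 replicate 1. Calls against dose in B73xMo17 became 320 without Mo17 replicate 1, and 53 and 36 without B73xMo17 replicates 2 and 3. In Mo17xB73 they became 118 and 114 without Mo17 replicates 1 and 3, 37 and 19 without Mo17xB73 replicates 1 and 3, and 29 without B73 replicate 2. Calls of the reciprocal departure became 184 and 147 without B73xMo17 replicates 2 and 3, and 157 without Mo17xB73 replicate 3. Precision was limited by 3 arrays a genotype and by the spread of the dim Mo17 signals.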
